A study of Homo sapiens with 6 samples.

Results

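ATF4 and 9 of its amino acid stress genes were examined in paclitaxel-resistant breast cancer cells sorted into stem-like and non-stem-like fractions. The 10 genes were taken as a list by name, drawn up with earlier results of these data known, and were ATF4, DDIT3, DDIT4, TRIB3, CHAC1, ASNS, PSAT1, PHGDH, SESN2 and SLC7A5. They were 10 of 61014 genes with a transcript on file and 10 of 20442 genes that passed the filter on low counts. Transcript counts were summed for each gene.

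All 6 libraries came from 1 cell line, MDA-MB-231, a mesenchymal-like human triple-negative breast cancer line that had been made resistant to paclitaxel, a drug that stabilises microtubules. The line was sorted on aldehyde dehydrogenase (ALDH) activity. The BCSC group (breast cancer stem cells, ALDH+) and the non-BCSC group (ALDH−) had n = 3 libraries each, named here BCSC 1 to 3 and non-BCSC 1 to 3. Every cell in both groups was of the resistant line and there was no paclitaxel-sensitive comparison, so the values describe a sort within 1 resistant line. The labels do not say whether the 3 libraries of a group came from separate cultures, so p-values measure only the spread between libraries, which may be technical. In bulk RNA, fewer cells expressing a gene and less RNA per cell cannot be told apart.

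ATF4 is a basic leucine zipper transcription factor. When amino acids run short or unfolded proteins build up in the endoplasmic reticulum, kinases phosphorylate the translation factor eIF2α, general protein synthesis slows, and the ATF4 mRNA is translated more, so the amount of ATF4 protein is set largely by translation and its mRNA level is not a measure of its activity. ATF4 protein, paired with C/EBP family members, binds C/EBP-ATF response elements and switches on genes for amino acid synthesis and uptake, redox balance and, when stress persists, cell death.

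The core of that element, searched as TGATGNAA on both strands, was present in the RefSeq promoter window (250 bases before to 50 after the start, GRCh38.p14) of 2 of the 10 genes, CHAC1 and ASNS. The same letters were found in 4.46% of 27305 genes with a window and in 29.9% of 67 genes of wider ATF4 pathway lists that had a window. The stretches around the match are shown for CHAC1, which was higher in BCSC, for ASNS, which was not, and for the glutamine transporter SLC1A5, a gene of the wider lists that was higher in BCSC. They lie at chr15:40953232-40953299 on the plus strand, chr7:97872439-97872506 on the minus strand and chr19:46784874-46784941 on the minus strand, and capitals mark the match. Each stretch lies upstream of the start of its own window; SLC1A5 has 3 windows, of which only the one furthest downstream in the gene held the match.
CHAC1: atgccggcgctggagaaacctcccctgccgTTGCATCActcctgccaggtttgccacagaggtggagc
ASNS: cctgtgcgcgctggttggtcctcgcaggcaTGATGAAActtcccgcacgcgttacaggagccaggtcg
SLC1A5: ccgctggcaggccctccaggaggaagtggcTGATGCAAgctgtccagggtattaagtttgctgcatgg
In CHAC1 the match reads on the opposite strand. A match describes the letters in the window and is not evidence of binding.

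Total counts ran from 15925943 to 21215352 for BCSC, while the non-BCSC totals were 9898588 to 12263667, so a count of 0 allowed up to 0.141 to 0.303 CPM, counts scaled to the library total. The mesenchymal marker VIM was abundant in every library, at 2320 to 3735 CPM, and the epithelial marker EPCAM was between 0 and 1.82 CPM. CD44 and AXL were also present in every library, at 1251 to 2802 and 142 to 322 CPM. The hormone receptor genes ESR1 and PGR were at 6.98 to 16.015 and 7.26 to 19.08 CPM in non-BCSC. In BCSC they were at 3.65 to 5.56 and 0.326 to 1.39 CPM. CDH1, another epithelial marker, was at 6.02 to 9.302 CPM in non-BCSC and 2.601 to 5.09 CPM in BCSC. The source of these counts was not tested. ALDH1A1, an ALDH gene, had 0, 5 and 6 counts in the BCSC libraries against 38, 28 and 32, and ALDH1A3, another, was at 25.6 to 33.4 CPM in BCSC and 12.1 to 23.5 CPM in non-BCSC. The non-BCSC libraries held more counts over 407 olfactory receptor genes, which breast cells are not known to use, at 538, 696 and 1228 CPM against 39.5, 55.4 and 151 in BCSC, and more of the leukocyte marker PTPRC, at 13.2 to 22.6 CPM against 0.197 to 1.15. The log2 fold change between the groups also moved with the GC content of a gene's transcripts, with a rank correlation of 0.54 across 20442 genes, which share libraries and are not independent replicates. Values for GC content and for this background are given beside the main results.

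Of the 10 genes, 3 were called higher in BCSC and 0 lower, by an adjusted p under 0.05 (edgeR quasi-likelihood test, Benjamini-Hochberg over all 20442 genes) and a fold above 2. They were CHAC1, SESN2 and SLC7A5. Over all genes tested, 8.85% were called higher and 11.3% lower. At an adjusted p under 0.05 with no minimum fold, 5 of the 10 were higher, with TRIB3 and PHGDH added, and ASNS was lower, where 15.3% of all genes were higher and 14.6% lower. All 3 BCSC libraries were above all 3 non-BCSC libraries in 5 of the 10 and below them in 1, against 24.2% and 27.9% of all genes. The median log2 fold change of the 10 was 0.90, and that of all genes tested was −0.05. These counts depended on GC content, as given further on: with GC content and length corrected on genes of 100 counts or more, 0 of the 10 were called higher.

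**Figure D1:**
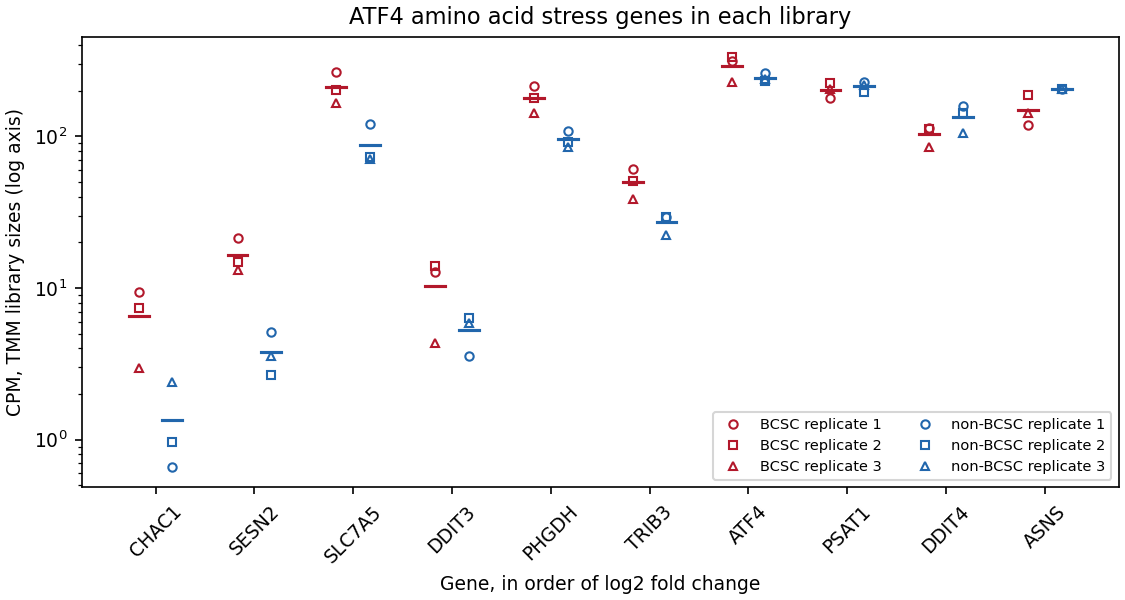
CPM of the 10 genes in each library on a log axis (BCSC in red, non-BCSC in blue, symbols for replicates 1 to 3, bars for group means), in order of log2 fold change. The groups stand apart, with BCSC higher, for CHAC1, SESN2, SLC7A5, PHGDH and TRIB3, and stand apart the other way for ASNS.

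ATF4 itself (chr22:39915700-39918688, GRCh37) was at 315, 333 and 229 CPM in BCSC 1 to 3 and 262, 232 and 239 CPM in non-BCSC 1 to 3, on library sizes scaled by TMM. BCSC 3 was the lowest of the 6 and the groups overlapped. The means were 292 ± 55.4 and 244 ± 15.8 CPM (SD, n = 3), with an edgeR log2 fold change of 0.26 ± 0.14 (SE) and an adjusted p of 0.189. ATF4 had the highest level per length of the 10 in both groups, at 224 ± 42.4 CPM per kb in BCSC and 180 ± 12.4 in non-BCSC (SD, n = 3). Its value changed sign when GC content was corrected. With all genes in the correction it was −0.016 ± 0.209 (SE, edgeR adjusted p = 0.960). With genes of 100 counts or more it was −0.44 ± 0.11 (SE, edgeR adjusted p = 0.0173), short of the fold minimum. In the GC-corrected fits that left out a library it was 0.066 to 0.49.

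Of the regulators DDIT3, TRIB3 and DDIT4, only TRIB3 separated the groups. DDIT3, which encodes the pro-death transcription factor CHOP (chr12:57910371-57915520), was at 12.8, 13.9 and 4.35 CPM in BCSC, against 3.55, 6.36 and 5.85 CPM in non-BCSC. BCSC 1 and 2 were above every non-BCSC library, while BCSC 3 was below non-BCSC 2 and 3. The fold was 1.97 with an edgeR log2 fold change of 0.98 ± 0.49 (SE) and an adjusted p of 0.157. Of the fits on uncorrected counts that left out a library, only 1 called DDIT3 higher. That fit left out BCSC 3, the lowest BCSC library for DDIT3, and gave 1.34 (edgeR adjusted p = 0.0456). Over all of these fits the log2 fold change was 0.74 to 1.34, with an edgeR adjusted p of 0.0456 to 0.404. With all genes in the GC correction it was 1.24 (edgeR adjusted p = 0.0618). With genes of 100 counts or more it was 0.60 (edgeR adjusted p = 0.355), and neither correction gave a call. DDIT3 shares 355 exon bases with the tRNA synthetase gene MARS1 on the opposite strand, which had 866 to 3206 counts against 43 to 260 for DDIT3, and the use of strand in counting is not stated, so reads of the pair may be mixed.

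TRIB3, a pseudokinase that dampens ATF4 and CHOP activity (chr20:343479-378203), was at 60.6, 51.0 and 38.8 CPM in BCSC, against 29.5, 29.5 and 22.4 CPM in non-BCSC. Every BCSC library was above every non-BCSC library. The means were 50.1 ± 10.96 and 27.2 ± 4.09 CPM (SD, n = 3), 1.85-fold, with an edgeR log2 fold change of 0.88 ± 0.21 (SE) and an adjusted p of 0.0146. Under both GC corrections the sign turned, to −0.45 and −0.43.

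DDIT4, the inhibitor of the growth kinase complex mTORC1 also known as REDD1 (chr10:74033678-74035794), went the other way. It was at 114, 112 and 84.9 CPM in BCSC, against 159, 142 and 105 CPM in non-BCSC, and the groups overlapped through non-BCSC 3. By edgeR the change on the log2 scale was −0.38 ± 0.17 (SE) at an adjusted p of 0.119. With GC content corrected, DDIT4 was called lower, at −1.33 (edgeR adjusted p = 0.00119) and −1.46 (edgeR adjusted p = 0.000111).

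SESN2, a sestrin that senses leucine and restrains mTORC1 (chr1:28586029-28609002), was at 21.4, 14.8 and 13.1 CPM in BCSC, against 5.12, 2.65 and 3.55 CPM in non-BCSC. Every BCSC library was above every non-BCSC library by more than 2-fold. The means were 16.4 ± 4.36 and 3.77 ± 1.25 CPM (SD, n = 3), 4.35-fold, with an edgeR log2 fold change of 2.12 ± 0.38 (SE) and an adjusted p of 0.00439. The call held when each library was left out in turn, at log2 fold changes of 1.89 to 2.46. It was lost with GC content corrected, where the log2 fold change was 0.89 (edgeR adjusted p = 0.0393) with all genes in the correction and 0.92 (edgeR adjusted p = 0.0384) with genes of 100 counts or more. In non-BCSC its count per kb was 0.701 to 2.17 times that of the olfactory receptor genes, and the part of that background in the SESN2 level was not tested.

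CHAC1, a γ-glutamylcyclotransferase that breaks down glutathione (chr15:41245160-41248710), was at 9.41, 7.37 and 2.96 CPM in BCSC, against 0.660, 0.972 and 2.40 CPM in non-BCSC. These were 191, 113 and 49 counts against 8, 11 and 25. BCSC 3, the lowest of its group, was close to non-BCSC 3, the highest of the other. The fold was 4.90, with an edgeR log2 fold change of 2.29 ± 0.71 (SE) and an adjusted p of 0.0357. The call held in only 2 of the 6 fits that left out a library, those without BCSC 3 or without non-BCSC 3, and its adjusted p ran from 0.0251 to 0.148. GC correction also ended the call, at 1.11 (edgeR adjusted p = 0.195) with all genes in the correction and 0.93 (edgeR adjusted p = 0.336) with genes of 100 counts or more. The count per kb in non-BCSC was 0.654 to 1.11 times that of the olfactory receptor genes, whose part was again not tested.

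The 3 amino acid synthesis enzymes did not move together. PHGDH, the first enzyme of serine synthesis (chr1:120191034-120286841), was at 217, 180 and 142 CPM in BCSC, against 108, 92.5 and 85.8 CPM in non-BCSC. The groups did not overlap. The means were 180 ± 37.3 and 95.6 ± 11.6 CPM (SD, n = 3), 1.88-fold, with an edgeR log2 fold change of 0.91 ± 0.16 (SE) and an adjusted p of 0.00447, and with GC content corrected on genes of 100 counts or more the log2 fold change was −0.032.

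PSAT1, the second enzyme of the same route (chr9:80912041-80945009), was at 180, 226 and 206 CPM in BCSC, against 228, 196 and 218 CPM in non-BCSC. The groups overlapped almost fully. By edgeR the change on the log2 scale was −0.07 ± 0.12 (SE) at an adjusted p of 0.683, so no difference was found between the groups. With all genes in the GC correction it was 1.15 (edgeR adjusted p = 0.00289), and with genes of 100 counts or more it was −0.06.

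ASNS, asparagine synthetase (chr7:97480989-97501854), was at 119, 187 and 144 CPM in BCSC, against 207, 207 and 206 CPM in non-BCSC. Every BCSC library was below the non-BCSC libraries, which lay close together. The means were 150 ± 34.6 and 206 ± 0.551 CPM (SD, n = 3), with an edgeR log2 fold change of −0.46 ± 0.15 (SE) and an adjusted p of 0.0467. Leaving out 1 library moved the adjusted p between 0.0239 and 0.151, and with all genes in the GC correction the sign turned, to 0.63 (edgeR adjusted p = 0.0581). With genes of 100 counts or more it was −0.52 (edgeR adjusted p = 0.0171), the direction of the uncorrected counts.

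SLC7A5, the large neutral amino acid transporter LAT1 (chr16:87863629-87903113), was at 266, 204 and 167 CPM in BCSC, against 121, 72.9 and 71.0 CPM in non-BCSC. Every BCSC library was above every non-BCSC library. The means were 212 ± 50.5 and 88.4 ± 28.5 CPM (SD, n = 3), 2.40-fold, with an edgeR log2 fold change of 1.26 ± 0.23 (SE) and an adjusted p of 0.00489. It was called in each of the 6 fits that left out a library, at 1.06 to 1.62. With GC content corrected it was −0.29 with all genes in the correction and −0.00385 with genes of 100 counts or more, neither past the threshold.

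By CPM per kb, ATF4 led in both groups and CHAC1 was lowest in both. This scale adjusts for transcript length but not for GC content, and it rests on the unstated assignment of reads to transcripts. Differences between genes on it were not tested. In BCSC, PHGDH followed at 101 ± 25.5, close to PSAT1 at 96.4 ± 14.98 and DDIT4 at 81.4 ± 14.6 (SD, n = 3), and these 3 did not differ beyond their spread. In non-BCSC, PSAT1 at 98.2 ± 7.75, ASNS at 90.9 ± 1.72 and DDIT4 at 84.8 ± 12.6 came next and PHGDH was next, at 51.4 ± 10.01. SESN2 at 4.75 ± 1.26 and CHAC1 at 4.41 ± 2.21 in BCSC, and at 1.09 ± 0.361 and 1.08 ± 0.433 in non-BCSC, did not differ beyond their spread in either group.

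Single libraries shaped the spread in a like way across the genes. BCSC 3 was the lowest BCSC library for 8 of the 10 and BCSC 1 the highest for 6, while non-BCSC 1 was the highest non-BCSC library for 7. The deviation of a library from its group mean also moved with GC content across 10471 genes of 100 counts or more, with rank correlations of 0.77 in BCSC 1 and −0.69 in BCSC 3. Without BCSC 3, 6 of the 10 were called higher, with DDIT3, TRIB3 and PHGDH added to the 3, where 7.72% of all genes in that fit were called higher. Fits on uncorrected counts that left out any other library called 2 to 4 of the 10 higher.

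GC content was high in most of the 10: 7 were in the highest quintile of tested genes (54.0% and over) and 1 in the quintile below it. Over all genes, 29.2% of the highest quintile were called higher and 1.003% lower, against 0.685% and 23.2% of the lowest quintile. Of the 7 genes studied here in the highest quintile, 3 were called higher. Among genes averaging 100 counts or more, 46.3% of the highest quintile were called higher. In that set SESN2 and SLC7A5 were called, and TRIB3, PHGDH, ATF4 and DDIT4 were not. CHAC1 averaged fewer counts and was outside it. In the same set the median log2 fold change of the highest quintile was 1.06. This was above the values of TRIB3, PHGDH, ATF4 and DDIT4 and below those of SESN2 and SLC7A5, and also below that of CHAC1. The part of GC content in these differences was not tested.

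**Figure D2:**
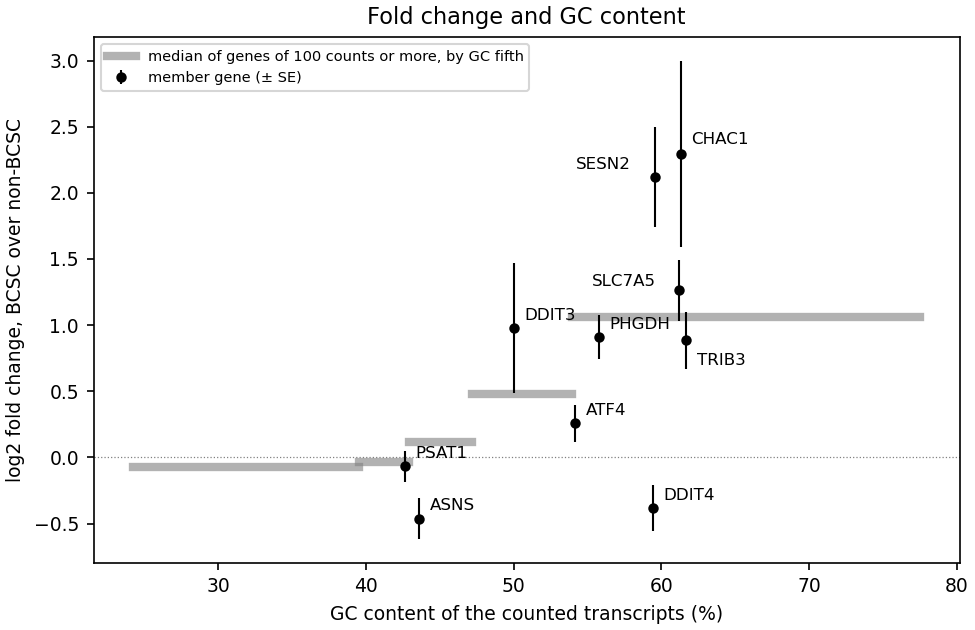
Log2 fold change of the 10 genes (points, ± SE) against the GC content of their counted transcripts in percent, with grey bars for the median of genes of 100 counts or more in each quintile of GC content. The medians climb from −0.08 in the lowest quintile to 1.06 in the highest, and CHAC1 and SESN2 lie above the bar of their quintile while DDIT4 and ATF4 lie below it.

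With GC content and length corrected per library over all genes, 1 of the 10 was called higher (PSAT1) and 1 lower (DDIT4), where 20.8% of all genes were called higher and 8.38% lower. This correction turned the relation with GC content among abundant genes, from a rank correlation of 0.57 to −0.62, and moved the median of all genes from −0.05 to 0.29. With the correction set on genes of 100 counts or more, an alternative added after the data were seen, the correlation among them was −0.06, 0 of the 10 were called higher and DDIT4 was called lower, where 2.02% of all genes were called higher and 12.8% lower. Removing a background set by the olfactory receptor genes left SLC7A5 higher, at a log2 fold change of 1.07 (edgeR adjusted p = 0.0106). For CHAC1 and SESN2 it gave 4.55 ± 1.47 and 3.90 ± 1.29 (SE), but the background is larger in non-BCSC and of the size of their counts there, so the subtraction fixes the direction and these values support nothing.

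**Figure D3:**
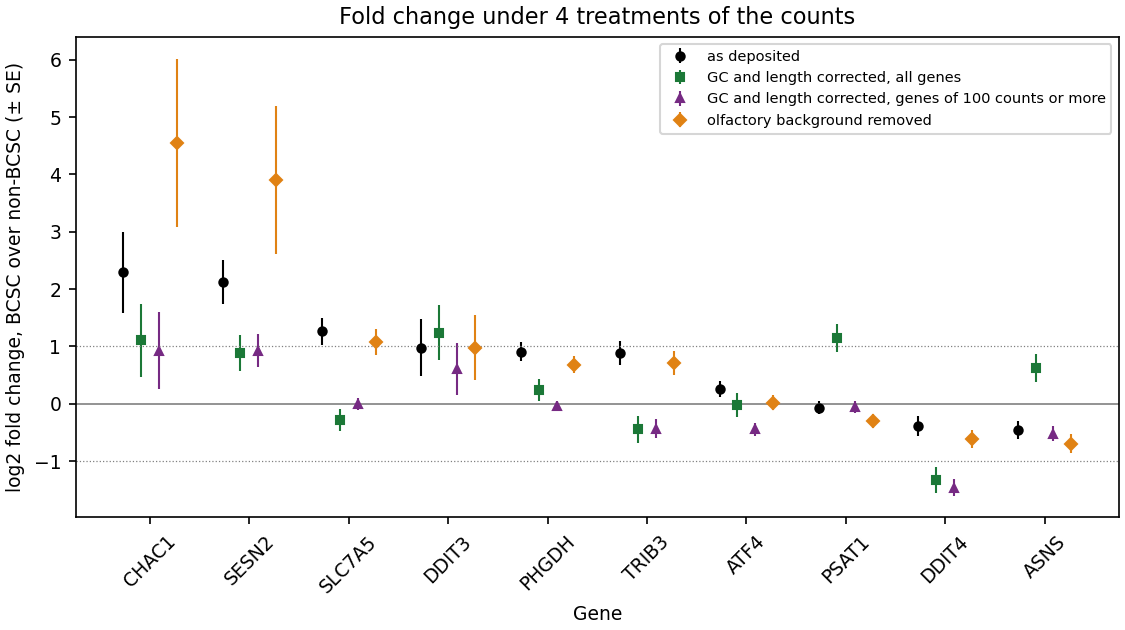
Log2 fold change of the 10 genes (± SE) with the counts as deposited, with each of 2 GC and length corrections, and with the olfactory receptor background removed. SLC7A5, TRIB3 and PHGDH fall to near or below 0 under a GC correction. CHAC1, SESN2 and DDIT3 stay above 0 in all 4 (the background removal fixes the direction of CHAC1 and SESN2), and DDIT4 stays below 0 in all 4.

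The transcripts of the 10 genes were also compared. Of 84 on file, 35 were tested and 0 were called by edgeR, where 0.784% of 45898 transcripts tested were called in either direction. At an unadjusted p under 0.05 there were 12, where 17.4% of all transcripts tested passed. DESeq2 called 10 of the 35 higher and 1 lower, where it called 7.61% and 8.63% of all transcripts. The step that assigned reads to transcripts is not stated, so shares between transcripts of 1 gene are uncertain.

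For ATF4, the transcript ATF4-206 held 50.6%, 50.9% and 85.3% of the gene's counts in BCSC, set against 92.6%, 91.6% and 88.7% in non-BCSC. The BCSC libraries were all below the non-BCSC libraries. ATF4-211 held 24.7%, 16.1% and 11.04% in BCSC, against 6.32%, 6.85% and 5.50% in non-BCSC, again with no overlap, while ATF4-201 held 24.7%, 32.6% and 3.69% against 1.04%, 1.60% and 5.83% and overlapped through BCSC 3. For ASNS, the transcript ASNS-203 held 9.34%, 22.7% and 18.4% in BCSC, against 31.8%, 41.3% and 54.9% in non-BCSC. By edgeR the change of ASNS-203 on the log2 scale was −1.66 ± 0.52 (SE) at an adjusted p of 0.186. DESeq2 gave −1.70 (DESeq2 adjusted p = 0.0377), and ASNS-203 was the transcript it called lower.

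Transcripts annotated as retaining an intron took 21.2%, 31.8% and 24.6% of DDIT4 counts in BCSC, set against 3.64%, 5.97% and 13.3% in non-BCSC. For ASNS they took 7.68%, 5.96% and 6.65% against 0.919%, 0.983% and 2.61%. Both genes separated the groups with BCSC higher, and SLC7A5 separated them the other way at a far smaller share, 0.0472% ± 0.0221 in BCSC against 0.131% ± 0.00832 in non-BCSC (SD, n = 3), while over all matched transcripts the share was 9.55% ± 0.452 in BCSC and 9.39% ± 0.619 in non-BCSC (SD, n = 3). For PHGDH the groups overlapped, and PHGDH-208 had 0 counts in non-BCSC 3 but 1023 and 817 in non-BCSC 1 and 2.

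**Figure D4:**
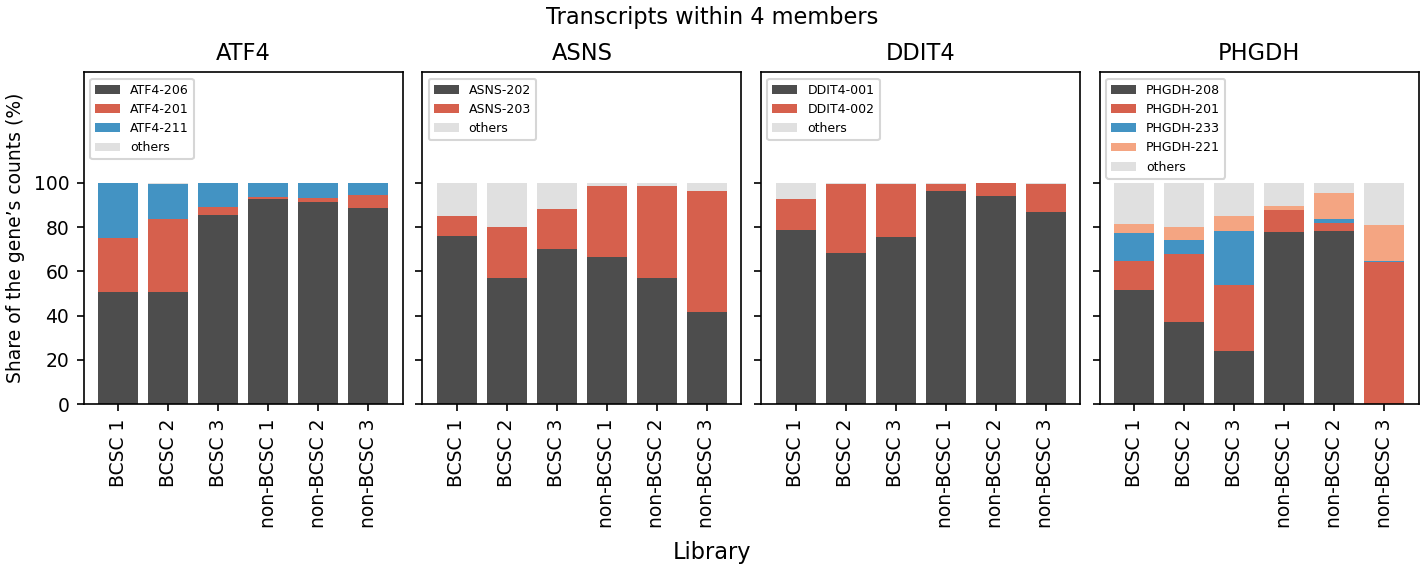
Share of each gene's counts, in percent, held by its main transcripts in each library for ATF4, ASNS, DDIT4 and PHGDH (stacked bars). ATF4-206 holds over 88% in each non-BCSC library and 50.6% to 85.3% in BCSC, and PHGDH differs as much within non-BCSC as between the groups.

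The other genes of the pathway were read from 9 lists with 83 genes, of which 80 were tested, 11 were called higher in BCSC and 3 lower, with a median log2 fold change of 0.24. Over all genes tested the shares were the 8.85% and 11.3% given before, and among genes averaging at least 50 counts the share called higher was 13.7%, with a median of 0.22, so the lists together lay near that background. Amino acid transporters had the highest median, 1.30, with 4 of 8 tested called higher. SLC7A1, the cationic amino acid transporter, was at 306, 286 and 260 CPM in BCSC, against 98.9, 90.1 and 100 CPM in non-BCSC (log2 fold change 1.56, edgeR adjusted p = 6.2e-05). SLC3A2, the heavy chain that partners SLC7A5 at the cell surface, was higher by a log2 fold change of 1.33 (edgeR adjusted p = 0.0129), and SLC1A4 and SLC1A5, neutral amino acid transporters, by 1.28 and 1.67. With GC content corrected on genes of 100 counts or more, SLC3A2 was at 0.38, SLC1A4 at 0.74 and SLC1A5 at 0.37. SLC7A11, the cystine transporter, was at 510 ± 105 and 517 ± 9.43 CPM (SD, n = 3), with a log2 fold change of −0.02. With all genes in the GC correction SLC7A11 was called higher, at 1.43 (edgeR adjusted p = 0.00138), and with genes of 100 counts or more it was at 0.21. SLC7A11 was named after its value was seen.

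Upstream of ATF4, 2 of 9 were called higher, and 4 were higher at any fold. GCN1, which helps activate the kinase GCN2, had a log2 fold change of 1.15, and PPP1R15A, which directs dephosphorylation of eIF2α and is itself an ATF4 pathway gene, had one of 1.36. Both lie in the highest GC quintile, and with GC content corrected they were at −0.043 and 0.36 with all genes in the correction and at 0.16 and 0.22 with genes of 100 counts or more, with no call. PPP1R15B and EIF2AK2 were higher at a smaller fold, at 0.71 and 0.41 (edgeR adjusted p = 0.00165 and 0.0157). With all genes in the correction 4 of the 9 were called higher, PPP1R15B at 1.47 and EIF2AK2 at 1.56 among them, where 20.8% of all genes were. With genes of 100 counts or more these 2 were at 0.68 and 0.58, and 0 of the 9 were called. Among the transcription factor partners, 1 of 6 was called, ATF5, at 1.49 (edgeR adjusted p = 0.0479), which became 0.37 and 0.29 under the 2 corrections. CEBPB, another partner, was lower in every BCSC library than in any non-BCSC library, at −0.84 (edgeR adjusted p = 0.0736). It was called lower under both corrections, at −2.39 and −2.25 (edgeR adjusted p = 0.000482 and 0.00179). None of 7 serine and one-carbon enzymes was called by edgeR, although MTHFD1 passed at a smaller fold (log2 fold change 0.75, edgeR adjusted p = 0.0028). Of 21 genes of the cytosolic tRNA synthetase list, VARS1 and WARS1 were called higher, and at any fold 4 were higher and 4 lower. Under the same corrections VARS1 was at −0.35 and −0.11 and WARS1 at 1.10 and 0.51. Among other synthesis genes GPT2, an alanine transaminase, was called at 1.33 and went to 0.67 and 0.46. Of the stress outputs, TNFRSF10B, the death receptor DR5, was called higher at 1.12 (edgeR adjusted p = 0.000709) and had 1.07 and 0.62 under the corrections, with edgeR adjusted p of 0.00201 and 0.00245.

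Some genes of the wider lists were lower in BCSC. HSPA5, the endoplasmic reticulum chaperone BiP, was at 661, 659 and 534 CPM in BCSC, against 1239, 1226 and 1142 CPM in non-BCSC, with a log2 fold change of −0.96 (edgeR adjusted p = 0.000586), just short of the fold minimum. SESN3, a paralogue of SESN2, was at 196, 199 and 267 CPM in BCSC, against 644, 664 and 593 CPM in non-BCSC (log2 fold change −1.52, edgeR adjusted p = 0.000179), the opposite direction to SESN2. DDIT4L, a paralogue of DDIT4, had a log2 fold change of −1.78, and KLHL24 one of −1.31. The GC content of SESN3 was 37.2% and that of SESN2 59.6%. With GC content corrected on genes of 100 counts or more, 0 of the 80 were called higher and 5 lower, SESN3, HSPA5 and KLHL24 among them at −1.34, −1.16 and −1.15. With all genes in the correction the calls of SESN3, HSPA5 and KLHL24 were lost, at −0.29, −0.41 and −0.06 (edgeR adjusted p = 0.346, 0.195 and 0.887). CEBPB, also among the 5, was called lower under both corrections. SLC7A1 was at 0.85 on genes of 100 counts or more (edgeR adjusted p = 0.000339).

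**Figure D5:**
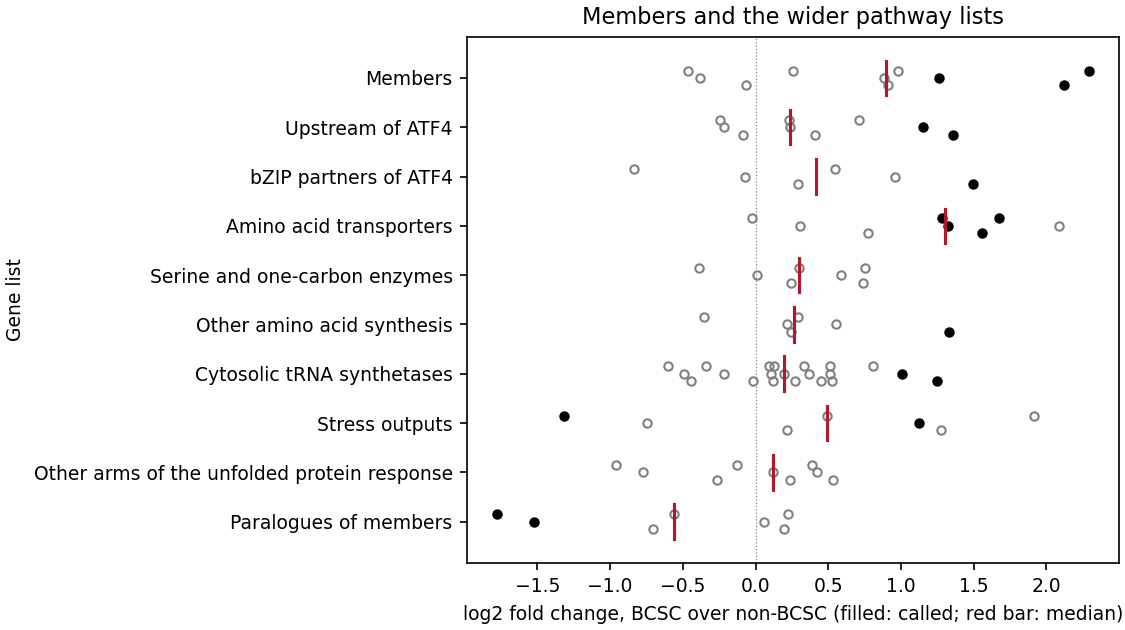
Log2 fold change between BCSC and non-BCSC for the 10 genes and for each wider list (filled points were called, red bars are medians). Transporters have the highest median, 1.30, and paralogues of the 10 genes the lowest, −0.56.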

How the data were processed

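The deposited values are raw counts per transcript; the authors aligned reads with HISAT2, and the processing notes also name featureCounts and DESeq2. The notes name hg38 and the study's methods hg19; the annotation release and the strand setting are not given in the sources used here. Of 252618 transcripts, 249616 (98.81%) matched GENCODE on GRCh37, 1746 of them only without the version; unmatched and left-out rows held 0.273% of counts. Gene coordinates are GRCh37, and promoter sequences are RefSeq's. Counts were summed per gene and tested with edgeR 4.0.16 (TMM, filterByExpr, robust quasi-likelihood) in R 4.3.3. Alternatives were DESeq2 1.42.0, RLE, other filters, thinning, a replicate block, loess (span 0.3) GC and length offsets, background removal and leaving out each library. The scripts were tested on simulated data. CPM used TMM library sizes, except for the value of a count of 0 and for the olfactory receptor genes, which used library totals. The 10 genes, the lists and the tests were chosen with earlier results of these data known. All 10 genes were named, as were transcripts with at least 10% of a gene's counts and list genes that were called or among the 3 next by p, where the text needed them; others were chosen after their values were seen. Intervals from counts cover counting error only.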

Additional observations from a re-analysis of the deposited data

How the results depend on the processing

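The limits are the 3 libraries a group, the unstated assignment of reads to transcripts, and the association of GC content and background with group. Members called higher (3) were 1 with GC content and length corrected, also with the replicate block added, 0 with that correction set on genes of 100 counts or more, 5 with no minimum fold, and 2 to 6 over fits leaving out a library (6 without BCSC 3); with GC corrected too, 1 to 4. Members called lower (0) were 1 under the GC corrections, the block with GC, and no minimum fold, and 0 to 1 with GC corrected and a library left out. Wider genes called higher (11) were 23 with GC corrected, 21 with the block added, 0 on genes of 100 counts or more, 6 with the olfactory background removed, 19 with no minimum fold, 7 to 14 leaving out a library and 22 to 37 with GC corrected too; called lower (3), they were 5 on genes of 100 counts or more, 9 with no minimum fold and 1 in each GC-corrected fit leaving out a library. Over all 20442 genes, 1810 were called higher in the main fit and 4244 with GC corrected. With the block added there were 4202, and on genes of 100 counts or more 412. Called lower, they were 2307, 1714, 1393 and 2608 in that order. Fits leaving out a library called 959 to 2230 higher and 1103 to 3004 lower, of 22473 to 23992 genes. With GC corrected too, these were 4139 to 6016 and 1017 to 1884. Background removal gave 1788 higher of 16532. DESeq2 called 10 transcripts higher and 1 lower. Signs reversed, for GC corrected, with the block, and on genes of 100 counts or more in that order, for ATF4 (−0.016, −0.031, −0.44), TRIB3 (−0.45, −0.43, −0.43) and SLC7A5 (−0.29, −0.29, −0.00385); for the first pair only for ASNS (0.63, 0.59) and PSAT1 (1.15, 1.13); and for the last only for PHGDH (−0.032). GC-corrected fits leaving out a library gave ATF4 0.066 to 0.49, TRIB3 −0.53 to −0.078, ASNS 0.61 to 1.14, PSAT1 1.14 to 1.65 and SLC7A5 −0.37 to −0.19, where uncorrected ones gave TRIB3 0.72 to 1.03, ASNS −0.62 to −0.32 and SLC7A5 1.06 to 1.62. PSAT1 was also reversed with no filter on low counts (0.0044) and without BCSC 1 (0.018) or non-BCSC 1 (0.033), over a range of −0.12 to 0.033 when 1 library was left out. The cause was not tested. All GC settings that also left out a library or used the block, and the one on genes of 100 counts or more, were chosen after seeing the data. The replicate block alone took CHAC1 to an edgeR adjusted p of 0.0509; same-numbered libraries correlated at 0.247, 0.0405 and 0.260, and since the second is under 0.1 the numbers were not taken to pair the libraries, although each library correlated best with its own number.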
